A study of Homo sapiens with 6 samples.

Results

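The genes described here are the matrix metalloproteinases (MMP), the ADAM and ADAMTS metalloproteinases and the tissue inhibitors of metalloproteinases (TIMP) of PC-3, a human prostate cancer cell line that was established from a metastasis in bone. They were chosen by name: every gene of the deposited table called MMP, ADAM or ADAMTS followed by a number, or TIMP1 to TIMP4. This gave 67 of 58302 genes, with 22 MMP, 22 ADAM, 19 ADAMTS and 4 TIMP genes. RNA was compared between 3 libraries of PC-3 cells that received a lentivirus overexpressing BHLHE22, which encodes a transcription factor of the basic helix-loop-helix (bHLH) class, and 3 libraries of PC-3 cells that received an empty-vector lentivirus. The series concerns myeloid-derived suppressor cells in bone metastases of prostate cancer. Separate cultures or clones are not named in the labels, and neither is the promoter of the virus. The spread behind each p-value is therefore that between libraries and may be technical only.

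MMPs are zinc-dependent enzymes that cut matrix proteins such as collagens, and they are made as inactive precursors. ADAMs are mostly membrane proteins. Some are active sheddases that release growth factors, cytokines and receptors from the cell surface, while others lack the catalytic residues and act in adhesion. ADAMTS enzymes are secreted and process procollagen, proteoglycans and microfibril proteins. TIMPs bind the active site of these enzymes and block them. In bone, tumour-derived metalloproteinases are known as part of matrix turnover and of the release of signalling proteins.

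The counts summed to 12186723 to 15949537 per library. BHLHE22 itself had 1 read in each vector library and 98, 92 and 133 reads in BHLHE22 replicates 1 to 3, which matches the labels. The epithelial markers EPCAM, KRT8, KRT18, KRT19 and CDH1 and the mesenchymal marker VIM were present in both groups, and 4 of the 5 prostate luminal genes looked at were low or absent, with KLK3 at 0. TMPRSS2 was the exception, with 6802 reads over the vector and 2948 over the BHLHE22 libraries. The summed levels of 3 marker lists of other cell types were lower in the BHLHE22 libraries, without overlap between groups. The summed level of 6 leukocyte genes and the erythroid gene HBB was 2.65 to 3.33 in vector and 0.574 to 1.38 in BHLHE22 libraries in CPM, a read count scaled to the library size. TYROBP, CD3E and HBB were at 0, and CD14, the only called gene of this list, had 104 and 21 reads over the groups. The sum of 6 fibroblast markers was 69.7 to 80.1 CPM in vector and 50.3 to 52.7 CPM in BHLHE22 libraries, with COL1A1 and COL3A1 called lower and LUM higher, and DCN at 0 in the vector libraries. The sum of 4 endothelial markers was 96.9 to 105 CPM against 63.8 to 75.9 CPM, with PECAM1 called lower, KDR not called, and VWF and CDH5 at 4 and 2 reads over the vector libraries. The part of these markers in the results was not tested.

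In the BHLHE22 cells, the collagenase gene MMP13 fell 6.57-fold. ADAMTS6 rose 10.1-fold from 20 reads over the vector libraries, and a few other ADAMTS and ADAM genes rose by smaller factors. Of the 67 genes, 29 had enough reads to be tested. Among these, 8 rose, 6 fell and 15 did not pass an adjusted p of 0.05 in edgeR's quasi-likelihood test. The 14 called genes are 48.3% of the 29, against 49.4% called among all 15945 genes tested. Rises made up 27.6% against 25.1% of all genes, and falls 20.7% against 24.3%. The share of these genes that changed was therefore near that of the transcriptome as a whole. The median log2 fold change of the 29 was 0.23, and that of all tested genes was 0.00. Called changes of at least 2-fold were found for 6 of the 29 genes, against 16.3% of all tested genes. The groups did not overlap for 17 of the 29 (58.6%), against 60.5% of all tested genes.

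By family, 1 MMP gene rose and 2 fell of 6 tested. Of 12 ADAM genes, 4 rose and 3 fell, and of 8 ADAMTS genes 3 rose and 1 fell. None of the 3 tested TIMP genes was called. With unscaled library sizes 10 of these genes rose and 3 fell, beside 5128 rises and 2890 falls among all tested genes, against 3996 and 3880 with TMM scaling. Of the 14 calls, 9 were kept in each of the 13 alternative fits that tested the gene: MMP13, MMP17, ADAM12, ADAM15, ADAM32, ADAMTS3, ADAMTS6, ADAMTS7 and ADAMTS16. The other 5 calls, MMP1, ADAM9, ADAM17, ADAM22 and ADAM23, were lost in at least 1 of them. In bulk libraries, fewer cells with a transcript and less of it per cell cannot be told apart.

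**Figure D1:**
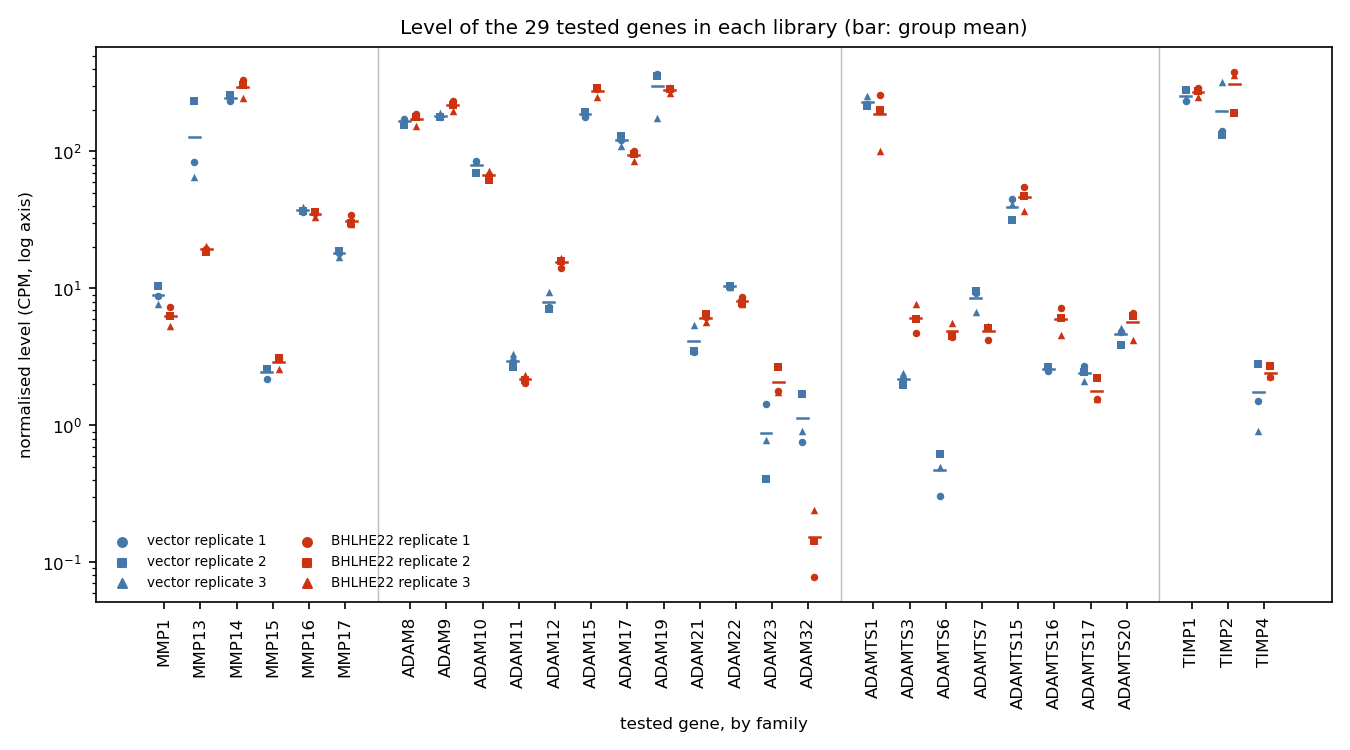
Normalised level of each of the 29 tested genes in each library, in CPM on a log axis, with genes grouped by family and the group mean as a bar. ADAMTS6 sits below 1 CPM in the vector libraries and between 4.45 and 5.58 CPM in the BHLHE22 libraries, and MMP13 lies at 18.5 to 20.4 CPM in the BHLHE22 libraries, below all vector libraries.

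The levels spanned a wide range. By the authors' deposited FPKM, which is scaled by gene length and so allows genes to be compared, TIMP1 was the most abundant of the 67 genes, at 107 ± 8 FPKM in vector and 127 ± 9 FPKM in BHLHE22 cells (SD, n = 3). MMP14 followed over the 6 libraries, at 38.8 ± 1.5 and 51.6 ± 7.6 FPKM, ahead of ADAM19, TIMP2 and MMP13. The MMP profile of these cells thus consisted largely of 2 genes. MMP14 held 32.9% to 56.5% of the summed MMP FPKM in vector libraries and 71.1% to 75.3% in BHLHE22 libraries. MMP13 held 29.3% to 58.1% in vector and 8.50% to 11.4% in BHLHE22 libraries. The groups did not overlap for either share. Both are parts of 1 total, so the MMP14 share goes up when MMP13 falls, and MMP14 itself was not called.

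MMP13 (ENSG00000137745, chromosome 11, 102942995 to 102955734, GRCh38) encodes collagenase-3, which cuts fibrillar collagens and is known from bone and cartilage remodelling. Its level was 83.1, 234 and 65.5 CPM in vector replicates 1 to 3 and 19.4, 18.5 and 20.4 CPM in the BHLHE22 replicates. Vector replicate 2 stood far above the other vector libraries, and all BHLHE22 libraries were low and close together. The fall was 6.57-fold (log2 fold change -2.72, SE 0.54, edgeR adjusted p = 0.00899). Without vector replicate 2 the log2 fold change was -1.93 (edgeR adjusted p = 0.000245), so the size of the fall depended on that library and the call did not. Over all alternatives the adjusted p ranged from 1.32e-05 to 0.0444.

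MMP1 (ENSG00000196611, chromosome 11, 102789920 to 102798160), the interstitial collagenase gene, was lower by a smaller amount. Its level was 8.85, 10.5 and 7.68 CPM in the vector libraries and 7.26, 6.31 and 5.34 CPM in the BHLHE22 libraries. The groups were separate by a narrow gap. The log2 fold change was -0.52 (SE 0.18, edgeR adjusted p = 0.0421), and the call was lost in 7 of 13 alternatives, with an adjusted p of up to 0.132.

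MMP1 and MMP13 lie in a cluster of 9 MMP genes on chromosome 11, from 102520508 to 102955734. Of the cluster, only MMP1 and MMP13 had enough reads to be tested, and both were called lower. MMP7, at the other end of the cluster, encodes matrilysin, a small MMP that also sheds surface proteins. It had 0 reads in every vector library and 8, 10 and 8 reads in BHLHE22 replicates 1 to 3, too few to pass the low-count filter. A fit without that filter called it (edgeR adjusted p = 0.000657). Between them, MMP10, the stromelysin-2 gene, had 9, 9 and 8 reads in vector and 9, 9 and 9 in BHLHE22 libraries. MMP3, MMP12 and MMP20 had no more than 3 reads in any library, and MMP8 and MMP27 had 0 in all.

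**Figure D2:**
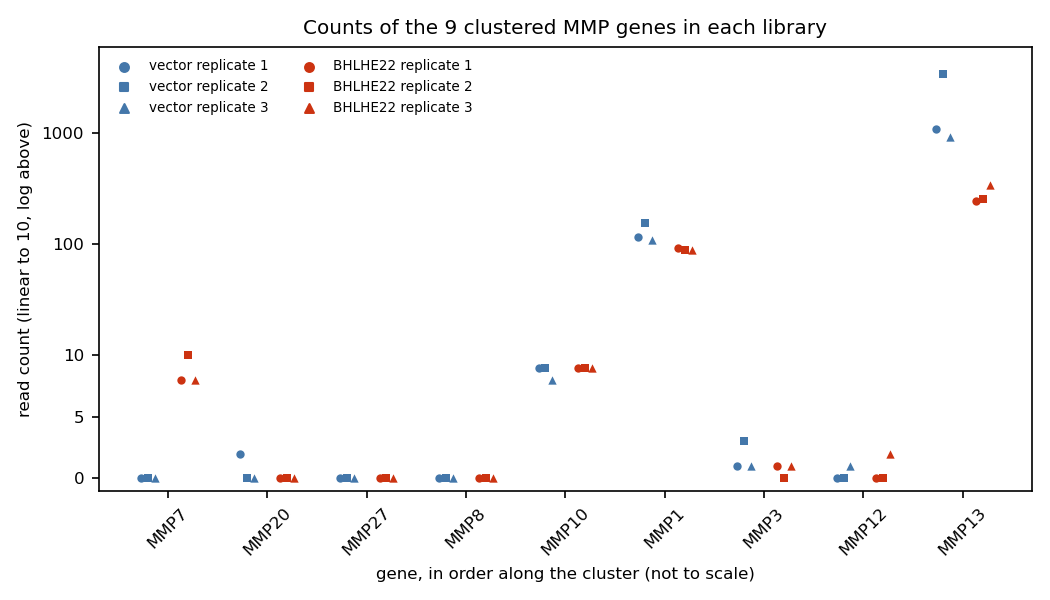
Read counts of the 9 clustered MMP genes in each library, in their order along chromosome 11, on an axis that is linear to 10 and logarithmic above. MMP7 is read only in BHLHE22 libraries, MMP10 is level, and MMP1 and MMP13 are lower in the BHLHE22 libraries.

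Of the 67 genes, 38 had a promoter window in the RefSeq table (GRCh38.p14), and the 250 bases upstream of the RefSeq start were searched for the bHLH binding motif CANNTG (the E-box) and the AP-1 site TGANTCA, on both strands. The MMP7 stretch is shown because this gene was read in 1 group only; it was chosen after its values were seen. It lies on the minus strand at chr11:102530748-102530997, with 6 bases inside the gene as the deposited table places it, and holds 1 AP-1 match, TGAGTCA, that overlaps 1 E-box match, CAAATG. Capitals mark both.
MMP7: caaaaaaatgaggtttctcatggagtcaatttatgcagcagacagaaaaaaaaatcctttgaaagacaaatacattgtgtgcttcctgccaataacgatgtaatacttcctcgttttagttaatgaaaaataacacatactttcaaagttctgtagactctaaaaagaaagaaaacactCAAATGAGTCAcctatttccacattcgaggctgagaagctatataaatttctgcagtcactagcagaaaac
An AP-1 match is in 6.6% and an E-box match in 61.8% of all 35116 upstream stretches of this length. No binding was measured here.

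The membrane-type MMPs are anchored at the cell surface, where MMP14 is known as the main activator of pro-MMP2. MMP17 (ENSG00000198598, chromosome 12, 131828393 to 131851783), a GPI-anchored member, was the only MMP gene of the 6 tested that rose. Its level was 18.15, 18.77 and 17.04 CPM in the vector libraries and 34.3, 29.8 and 29.6 CPM in the BHLHE22 libraries. The replicates of each group were close and the groups far apart (log2 fold change 0.80, SE 0.11, edgeR adjusted p = 0.00106). MMP14 had 234, 258 and 246 CPM in vector and 334, 306 and 247 CPM in BHLHE22 libraries, so BHLHE22 replicate 3 lay among the vector values. It did not pass (log2 fold change 0.26, edgeR adjusted p = 0.0933) and passed without that library (0.38, edgeR adjusted p = 0.0131) or with unscaled library sizes (0.41, edgeR adjusted p = 0.0175). MMP16, another membrane-type member, was at 37.3 ± 1.6 and 35.0 ± 1.6 CPM, and MMP15 at 2.46 ± 0.23 and 2.90 ± 0.28 CPM; neither was called. With unscaled library sizes the log2 fold change of MMP16 changed sign, from -0.10 to 0.05.

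The gelatinase genes were near the limit of detection. MMP2 had 5 reads over the vector and 0 over the BHLHE22 libraries. MMP9 had 13 reads over the vector and 1 over the BHLHE22 libraries, was not kept by the filter, and was called lower without it (edgeR adjusted p = 0.0350). Of the 38 genes left out of the test, 8 had 0 reads in all libraries, 16 had 1 to 9 and 14 had 10 or more. Without the filter, 30 of them could be tested and only MMP7 and MMP9 were called. That fit gave 3985 rises and 3875 falls among 31773 genes, which include genes of all levels.

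ADAM10 and ADAM17 are the main sheddases of the ADAM family: ADAM17 releases TNF and several EGF receptor ligands, and ADAM10 cuts Notch receptors and cadherins. ADAM17 (ENSG00000151694, chromosome 2, 9488486 to 9555792) had 121, 130 and 110 CPM in vector and 101, 96.4 and 85.8 CPM in BHLHE22 libraries. All BHLHE22 libraries were lower than all vector libraries, by a log2 fold change of -0.35 (SE 0.10, edgeR adjusted p = 0.0187). The call was lost in 5 of 13 alternatives, including unscaled library sizes (edgeR adjusted p = 0.0933). In GENCODE release 29, where the position of ADAM17 differs from the deposited one, its exons overlap IAH1 on the opposite strand. IAH1 had 1048 reads over the vector and 1456 over the BHLHE22 libraries. Strand use in the counting is not stated, and its part in the ADAM17 value was not tested. ADAM10 had 84.9, 69.2 and 85.0 CPM in vector and 67.3, 61.3 and 72.3 CPM in BHLHE22 libraries, which overlap at vector replicate 2. The log2 fold change was -0.25 (edgeR adjusted p = 0.0986), and -0.34 without vector replicate 2 (edgeR adjusted p = 0.0327).

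Of the other catalytic ADAM genes, ADAM15, ADAM12 and ADAM9 rose, while ADAM8, ADAM19 and ADAM21 were not called. ADAM15 (ENSG00000143537, chromosome 1, 155050566 to 155062775), whose product carries an integrin-binding RGD motif, had 177, 194 and 190 CPM in vector and 285, 291 and 248 CPM in BHLHE22 libraries. The groups were well apart (log2 fold change 0.56, SE 0.09, edgeR adjusted p = 0.00176). ADAM12 (ENSG00000148848, chromosome 10, 126012381 to 126388455), a sheddase known from stroma and tumours, had 7.34, 7.07 and 9.44 CPM in vector and 14.2, 15.9 and 16.8 CPM in BHLHE22 libraries. This was a 1.97-fold rise (log2 fold change 0.97, SE 0.15, edgeR adjusted p = 0.00168).

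ADAM9 (ENSG00000168615, chromosome 8, 38996869 to 39105144) rose slightly, from 179, 177 and 190 CPM to 235, 220 and 197 CPM. Its log2 fold change was 0.26 (SE 0.09, edgeR adjusted p = 0.0421), and the call was lost in 6 of 13 alternatives, with an adjusted p of up to 0.117. The neighbouring gene ADAM32 (ENSG00000197140, chromosome 8, 39106990 to 39284911), a testis-type ADAM without catalytic residues, begins 1845 bases downstream and moved the other way. It had 10, 25 and 13 reads in vector and 1, 2 and 4 reads in BHLHE22 libraries, a low count throughout. ADAM32 passed the low-count filter only through the vector libraries, where it was higher. The log2 fold change was -2.75 (SE 0.53, edgeR adjusted p = 0.00419), and the gene fell below a filter of 1 CPM in 3 libraries. The other members of this stretch, ADAM5, ADAM18 and ADAM2, had 0, 0 and 1 read over all libraries.

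ADAM11, ADAM22 and ADAM23 encode non-catalytic ADAMs known from the nervous system, where ADAM22 and ADAM23 bind the secreted protein LGI1. ADAM23 (ENSG00000114948, chromosome 2, 206443539 to 206621130) had 1.44, 0.408 and 0.775 CPM in vector and 1.79, 2.65 and 1.74 CPM in BHLHE22 libraries. It rose 2.38-fold at a low level (log2 fold change 1.25, SE 0.42, edgeR adjusted p = 0.0377), and the call was lost in 7 of 13 alternatives. The vector libraries alone would not have passed the low-count filter for this gene. ADAM22 (ENSG00000008277, chromosome 7, 87934143 to 88202889) went the other way, from 10.3, 10.5 and 10.2 CPM to 8.58, 7.82 and 7.68 CPM (log2 fold change -0.36, SE 0.12, edgeR adjusted p = 0.0356), and its call was lost in 9 of 13 alternatives. ADAM11 was at 2.97 ± 0.33 and 2.17 ± 0.16 CPM and did not pass.

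Of the remaining tested ADAM genes, ADAM8, a sheddase known from leukocytes and tumours, differed little between groups, at 167 ± 10 and 173 ± 18 CPM (edgeR adjusted p = 0.670). ADAM21, a testis-type gene, was at 4.10 ± 1.15 and 6.09 ± 0.41 CPM and narrowly missed the threshold (log2 fold change 0.57, edgeR adjusted p = 0.0570). It passed without vector replicate 3 (0.83, edgeR adjusted p = 0.00798), with limma-voom (its adjusted p = 0.0440) and with unscaled library sizes (edgeR adjusted p = 0.0295). Its near copy ADAM21P1 had 18 and 27 reads over the groups, and how reads were split between them is not stated. ADAM19, which sheds neuregulin, had 365, 353 and 176 CPM in vector and 292, 286 and 268 CPM in BHLHE22 libraries. Vector replicate 3 was far below the other vector libraries. The log2 fold change was -0.08 (edgeR adjusted p = 0.831), and -0.34 without that library (edgeR adjusted p = 0.0119), while leaving out either of the other vector libraries turned its sign. Exons of ADAM19 overlap CYFIP2 on the opposite strand, which had 658 reads over the vector and 1270 over the BHLHE22 libraries.

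**Figure D3:**
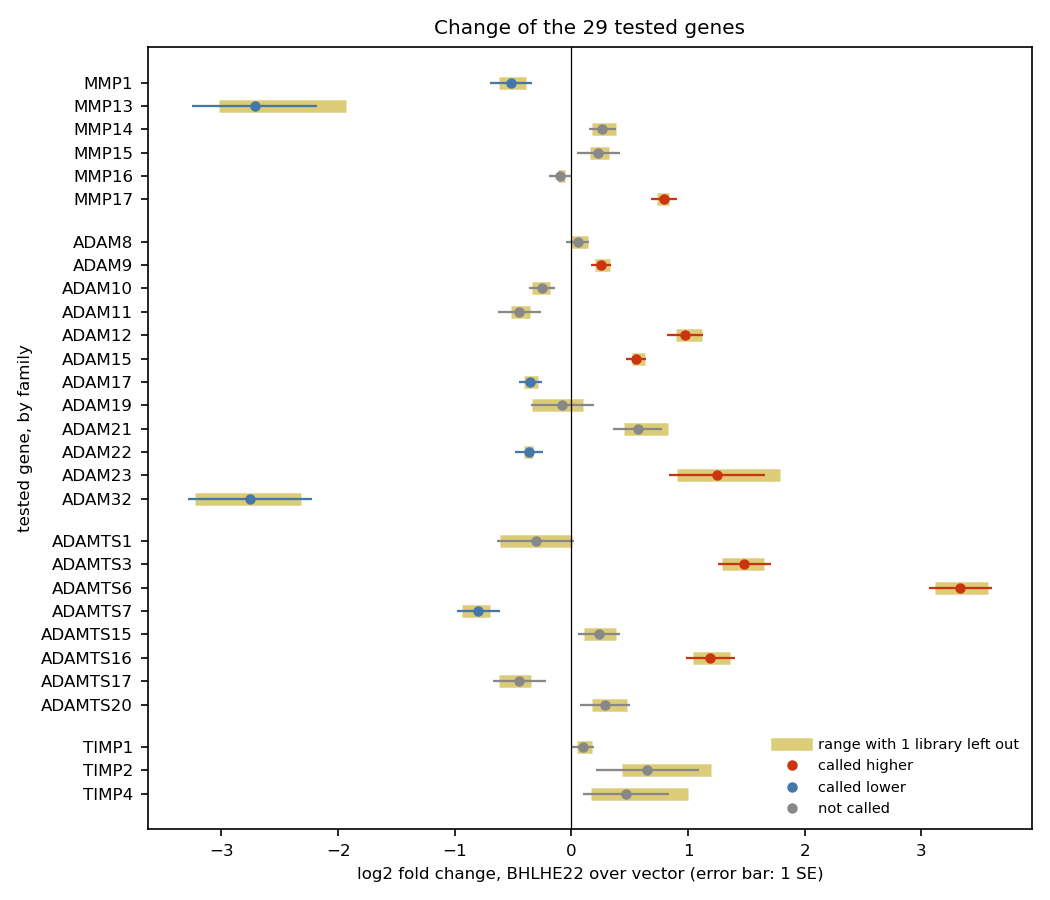
Log2 fold change (BHLHE22 over vector) of the 29 tested genes by family, with an error bar of 1 SE and the range obtained when 1 library is left out. ADAMTS6 is the highest at 3.34, ADAM32 and MMP13 are the lowest at -2.75 and -2.72, and the ranges of ADAM19 and ADAMTS1 cross 0.

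ADAMTS6 showed the largest rise of the 29 genes. It encodes a secreted protease linked to fibrillin microfibrils, and the gene (ENSG00000049192) lies on chromosome 5 from 65148736 to 65481920. Its counts were 4, 9 and 7 in vector and 57, 63 and 93 in BHLHE22 libraries, or 0.303, 0.612 and 0.493 against 4.45, 4.52 and 5.58 CPM. Every BHLHE22 library was several times above every vector library. The rise was 10.1-fold (log2 fold change 3.34, SE 0.27, edgeR adjusted p = 0.000149), and its size rests on 20 reads over the vector libraries. Those libraries alone would not have passed the low-count filter, so the gene was tested through the BHLHE22 group, where it was high. The separation of the groups is not independent of this selection. ADAMTS10, the closest relative of ADAMTS6, had 3 reads over the vector and 2 over the BHLHE22 libraries.

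The procollagen N-proteinases ADAMTS2, ADAMTS3 and ADAMTS14 remove the amino-terminal propeptide of procollagens, and ADAMTS3 also processes VEGF-C. Here ADAMTS3 (ENSG00000156140, chromosome 4, 72280969 to 72569386) had 2.19, 1.97 and 2.39 CPM in vector and 4.68, 5.96 and 7.68 CPM in BHLHE22 libraries. It rose 2.80-fold, with the BHLHE22 replicates spread more than the vector ones (log2 fold change 1.48, SE 0.23, edgeR adjusted p = 0.00150). ADAMTS14 had 8 reads over the vector and 22 over the BHLHE22 libraries and was not tested. ADAMTS2 had 1 read in all.

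ADAMTS16 (ENSG00000145536, chromosome 5, 5140330 to 5320304), which is expressed in kidney and gonads, had 2.50, 2.65 and 2.61 CPM in vector and 7.18, 6.10 and 4.56 CPM in BHLHE22 libraries. The rise was 2.29-fold and the groups were apart (log2 fold change 1.19, SE 0.21, edgeR adjusted p = 0.00266). ADAMTS7 (ENSG00000136378, chromosome 15, 78759203 to 78811431), whose product cuts cartilage oligomeric matrix protein, was the only ADAMTS gene of the 8 tested that fell. It had 9.23, 9.59 and 6.76 CPM in vector and 4.21, 5.09 and 5.34 CPM in BHLHE22 libraries (log2 fold change -0.80, SE 0.18, edgeR adjusted p = 0.00896). Its copies ADAMTS7P1, ADAMTS7P3 and ADAMTS7P4 had 1, 11 and 0 reads over the vector libraries; reads from ADAMTS7 and such copies may have been split or dropped in counting, so its level is uncertain.

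The upstream stretches of ADAMTS6 and ADAM23, which are among the rising genes with the largest changes, are shown to compare them for the motif that bHLH factors bind. The ADAMTS6 stretch (minus strand, chr5:65481921-65482170) held 3 E-box matches. The form CACGTG begins 63 bases before the RefSeq start. The form CACATG lies closer, at 46 bases, and the last match, CATCTG, at 18 bases. That of ADAM23 (plus strand, chr2:206443282-206443531) held 0. The stretch of ADAMTS3 is not shown, since its RefSeq start differs from that of the deposited table and 165 of its 250 bases lie inside the deposited gene. MMP13, also among the called genes with the largest changes, had no window. Of the 14 called genes, 8 had one. Capitals mark the E-box matches.
ADAMTS6: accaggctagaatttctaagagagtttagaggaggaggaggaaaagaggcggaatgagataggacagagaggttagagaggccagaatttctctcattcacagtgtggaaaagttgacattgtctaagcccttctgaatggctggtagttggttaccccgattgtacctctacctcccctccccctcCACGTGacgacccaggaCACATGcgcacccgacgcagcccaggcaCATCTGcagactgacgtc
ADAM23: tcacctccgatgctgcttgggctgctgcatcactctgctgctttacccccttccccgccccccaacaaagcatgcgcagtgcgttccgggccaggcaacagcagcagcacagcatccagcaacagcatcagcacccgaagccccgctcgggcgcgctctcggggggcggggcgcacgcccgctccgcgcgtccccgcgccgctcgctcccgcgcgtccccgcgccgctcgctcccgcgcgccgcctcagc
The CACGTG form was not among the planned motifs and was added to the search. It is in 6.3% of all 35116 stretches, and the planned CATATG form is in 2.6%. Of the 18 tested genes with a stretch, all counted from the RefSeq start, 11 held an E-box match, 3 the CACGTG form, 0 the CATATG form and 0 an AP-1 match. The ETS core GGAA was in 17 of the 18, against 92.7% of all stretches. These are letters in a window, and no binding was measured.

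Among ADAMTS genes whose products cut proteoglycans, ADAMTS1, ADAMTS15 and ADAMTS20 were not called, and ADAMTS4 and ADAMTS5 were too low to test. ADAMTS1, the most abundant ADAMTS gene, had 223, 215 and 254 CPM in vector and 260, 200 and 100.2 CPM in BHLHE22 libraries. BHLHE22 replicate 3 was far below the others, and the gene did not pass (log2 fold change -0.31, edgeR adjusted p = 0.480). ADAMTS15 was at 39.4 ± 6.8 and 46.4 ± 9.1 CPM and ADAMTS20 at 4.62 ± 0.66 and 5.67 ± 1.28 CPM; neither passed. ADAMTS4 and ADAMTS5, the aggrecanases, had 27 and 13 reads over the vector and 14 and 20 over the BHLHE22 libraries. Outside this group, ADAMTS17 was at 2.43 ± 0.31 and 1.78 ± 0.38 CPM and did not pass.

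The TIMP genes did not pass the test. TIMP1, a secreted inhibitor of most MMPs, had 235, 282 and 247 CPM in vector and 291, 277 and 250 CPM in BHLHE22 libraries (log2 fold change 0.10, SE 0.10, edgeR adjusted p = 0.442). TIMP2, which also takes part in the activation of pro-MMP2 by MMP14, had 140, 133 and 320 CPM in vector and 379, 191 and 362 CPM in BHLHE22 libraries. Vector replicate 3 was close to BHLHE22 replicates 1 and 3, and BHLHE22 replicate 2 near the lower vector ones. Its log2 fold change of 0.65 had an SE of 0.44 (edgeR adjusted p = 0.273), and without vector replicate 3 it was 1.19 (edgeR adjusted p = 0.0326). TIMP4 was at 1.74 ± 0.96 and 2.42 ± 0.26 CPM (log2 fold change 0.47, edgeR adjusted p = 0.324), and at 1.00 without vector replicate 2 (edgeR adjusted p = 0.0343). TIMP3, a matrix-bound inhibitor that also blocks ADAM17, had 0 reads in all 6 libraries, which allows a level of up to 0.0712 CPM in the vector and 0.0691 CPM in the BHLHE22 group by counting error alone.

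**Figure D4:**
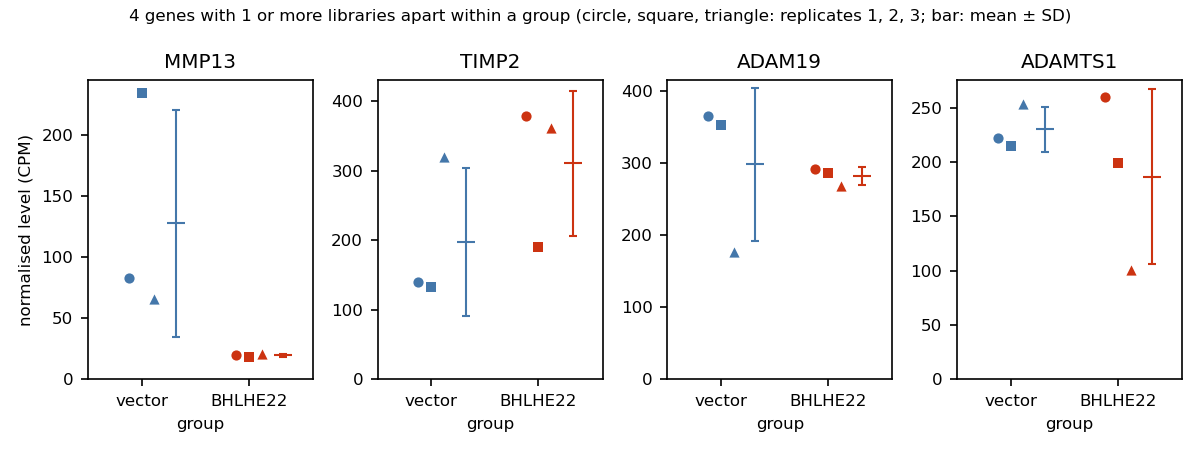
Levels in CPM of MMP13, TIMP2, ADAM19 and ADAMTS1 in each library, with mean ± SD of each group (n = 3). Vector replicate 2 is high for MMP13, vector replicate 3 is high for TIMP2 and low for ADAM19, and BHLHE22 replicate 3 is low for ADAMTS1.

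Summed per length, the 4 TIMP genes held 114 to 140 FPKM in the vector and 151 to 179 FPKM in the BHLHE22 libraries, by the deposited values. The 22 MMP genes held 70.3 to 120 FPKM in vector and 60.9 to 77.4 FPKM in BHLHE22 libraries. The TIMP sums did not overlap, and after TMM scaling the nearest values were 143.3 FPKM in vector replicate 3 and 144.0 FPKM in BHLHE22 replicate 2. The MMP sums overlapped.

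Lists of genes that act with these proteases held called genes in both directions. Their counts stand beside 25.1% higher, 24.3% lower and 49.4% called in either direction among all tested genes, whose median log2 fold change was 0.00. In the plasminogen activation list, whose enzymes activate several MMPs, 7 of 9 tested genes rose (77.8%, against 25.1% of all) and 1 fell, with a median log2 fold change of 0.82. The plasminogen gene PLG itself, named after its values were seen, was not tested. It had 2 reads over the vector and 0 over the BHLHE22 libraries. SERPINB2, the plasminogen activator inhibitor PAI-2, rose from 7.52 ± 0.75 to 26.1 ± 6.7 CPM, and the plasminogen receptor gene PLGRKT from 2.56 ± 0.26 to 7.22 ± 0.95 CPM. SERPINE2, the inhibitor protease nexin-1, fell from 712 ± 258 to 110 ± 25 CPM. The rises thus included an inhibitor of plasminogen activators as well as PLAU and PLAUR, the urokinase gene and its receptor, which were named after their values were seen (log2 fold changes 0.41 and 0.88).

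Of 18 tested activators and inhibitors other than TIMPs, 4 rose and 5 fell, with a median of 0.24. The called share of 50% was near the 49.4% of all tested genes. RHBDF1 and RHBDF2 encode the iRhom proteins that carry ADAM17 to the cell surface. RHBDF1 fell from 55.4 ± 13.8 to 24.4 ± 2.8 CPM and RHBDF2 from 93.0 ± 2.3 to 65.9 ± 1.7 CPM, so both moved in the same direction as ADAM17. LRP1, an endocytic receptor that clears MMPs and TIMPs, fell from 867 ± 77 to 452 ± 41 CPM, and the proteoglycan gene SPOCK1 rose from 44.4 ± 2.1 to 80.0 ± 5.5 CPM. RECK, a membrane inhibitor of MMPs named after its values were seen, rose (log2 fold change 0.66, edgeR adjusted p = 0.0196).

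Among proteins shed by ADAM10 or ADAM17, 9 of 23 tested genes rose (39.1%, against 25.1% of all) and 4 fell (17.4%, against 24.3%), with a median of 0.05. The called share was 56.5%, against 49.4%. The EGF receptor ligand genes EPGN, HBEGF and TGFA rose, EPGN from 3.77 ± 0.46 to 38.4 ± 1.7 CPM, HBEGF from 19.4 ± 1.5 to 85.1 ± 18.4 CPM and TGFA from 78.8 ± 5.6 to 138 ± 7 CPM. AXL, a receptor tyrosine kinase, rose from 141 ± 19 to 302 ± 31 CPM. In the same ligand family EREG, named after its values were seen, had a log2 fold change of -1.58 (edgeR adjusted p = 0.00156).

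Of 25 tested matrix substrate genes, 4 rose and 8 fell, with a median of -0.08. The called share of 48% was near the 49.4% of all tested genes. The log2 fold change of the fibronectin gene FN1 was -2.12 and that of SPARC -3.37, against 1.96 for THBS1 and 1.17 for TNC, which encode matrix glycoproteins. In the list of ADAMTS-like and procollagen-processing genes, 1 of 12 rose and 5 fell (median -0.14), and the called share of 50% was again near 49.4%. The procollagen C-proteinase genes TLL1 and BMP1 had log2 fold changes of -1.77 and -0.71, opposite in sign to the N-proteinase ADAMTS3, and the matrix genes THSD4 and LTBP1 had -0.61 and -0.36. With unscaled library sizes LTBP1 did not pass (edgeR adjusted p = 0.0536). Of 14 AP-1 and ETS factors, which bind MMP promoters, 3 rose and 5 fell (median -0.03), a called share of 57.1% against 49.4% of all. ETS2 rose by 0.78, and FOSL1, ETV4 and FOSB had log2 fold changes of -0.48, -0.43 and -1.80. The AP-1 genes JUN and FOSL2, named after their values were seen, rose (log2 fold changes 0.72 and 0.49).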

How the data were processed

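Per the submitters' processing notes, the tools were HISAT2 2.1.0, StringTie 1.3.4b, CASAVA 1.8 and edgeR on GRCh38 (hg38). Which tool made which values, and whether counting used strand, was not given in the sources used here. The authors deposited 1 table with read counts and FPKM values per Ensembl gene. Its control columns stand for the vector libraries. The deposited FPKM values, which are not TMM-scaled, were used for comparing levels between genes. Positions come from that table, and 66 of the 67 were identical in GENCODE release 29 (GRCh38), the exception being ADAM17. Exon overlaps with other genes were taken from that release.

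Counts were tested with edgeR 4.0.16 in R 4.3.3: filterByExpr, trimmed mean of M-values (TMM) scaling, robust quasi-likelihood test on the group alone (2-sided), and Benjamini-Hochberg adjustment over 15945 genes. Calls use an adjusted p under 0.05. CPM values are edgeR's counts scaled to the TMM-adjusted library size. The SE is the log2 fold change divided by the root of F. Limits for 0 counts use 3 counts over the group and cover counting error only. The procedure was also run on simulated counts in which few genes changed. That run does not probe the scaling when as many genes change as here. Alternatives used DESeq2 1.42.0 and limma 3.58.1. The genes, lists and motifs were chosen with earlier results of these data known. All tested genes of the 4 families are named, also those of low level that the rule for named genes leaves out (MMP15, ADAM11 and ADAMTS17), and of each list the 4 called genes with the smallest p, except 1 gene that is not reported here. E-box, AP-1, ETS and interferon response motifs were searched in the upstream 250 bases of each 300-base RefSeq window.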

Additional observations from a re-analysis of the deposited data

How the results depend on the processing

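Of 376 alternative values for the 29 tested genes, 328 kept the direction and the side of the threshold, 34 lost a call, 9 gained one and 5 changed sign; of 312 values for the 24 list genes that the naming rule chose, 311 kept both and 1 lost a call. The sign changes were in genes without a call: MMP16 at 0.050 and ADAM19 at 0.074 with unscaled library sizes, ADAM19 without vector replicate 1 or 2 (its leave-one-out range was -0.34 to 0.10), and ADAMTS1 without BHLHE22 replicate 3 (range -0.61 to 0.0022). Unscaled sizes raised the median log2 fold change of all genes by 0.15. They gave 3 falls among the 67 genes, with 2 rises and 1 fall in the MMP family and 1 fall in the ADAM family, 7 rises among activators and inhibitors and 3 falls among ADAMTS-like genes. DESeq2 gave 1 fall in the MMP family and 2 rises in the ADAM family, beside 3679 rises and 3696 falls of all genes. The fit without the low-count filter gave 2 rises in the MMP family, beside 3985 rises and 3875 falls of all genes. A threshold of 0.01 left 2480 rises and 2482 falls of all genes, 3 falls among the 67, 1 fall in the MMP family, and 2 rises and 1 fall in the ADAM family. Leaving out 1 library gave 3229 to 3936 rises and 3074 to 3762 falls among all tested genes, against 3996 and 3880 in the main fit. Among the 67 genes it gave 6 to 9 rises and 3 to 6 falls. By family this was 1 to 2 rises and 1 to 2 falls for MMP, 2 to 4 rises and 1 to 3 falls for ADAM, 0 to 1 rises for TIMP, and 4 to 7 falls among shed proteins. The causes of these moves were not tested.

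With the replicate number as a block, 6 of the 67 genes rose and 5 fell, with 2 rises in the ADAM family, since ADAM9, ADAM22 and ADAM23 lost their calls. Among all genes that fit gave 3688 rises and 3604 falls. Same-numbered libraries share only a number: the correlations of their deviations from the group means were 0.0054, -0.027 and 0.010 for replicates 1 to 3. The 38 untested genes did not pass the low-count filter, and 24 of them had fewer than 10 reads in all.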
